A study of Mus musculus with 4 samples.

Results

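The 9 sarcomeric myosin heavy chain genes of the mouse, Myh1, Myh2, Myh3, Myh4, Myh6, Myh7, Myh7b, Myh8 and Myh13, were examined in skeletal muscle of AMPKα2 knockout (KO) and wild-type (WT) mice. Members were all sites that carried 1 of these 9 gene symbols, and counts were also summed per gene. All 9 genes were detected, with 154 of the 42207 sites and 9 of the 9838 genes of the table. The fast genes Myh1, Myh2 and Myh4 had 126 sites, the slow or cardiac genes Myh6, Myh7 and Myh7b had 18, the developmental genes Myh3 and Myh8 had 7, and the extraocular gene Myh13 had 3. Myh3 (chr11:67078273-67102291), Myh2 (chr11:67171027-67197517), Myh1 (chr11:67200102-67224577), Myh4 (chr11:67237812-67260447), Myh8 (chr11:67277124-67308634) and Myh13 (chr11:67327103-67371587) form a cluster on the plus strand. Myh6 (chr14:54941921-54968017) and Myh7 (chr14:54970684-54994626) are neighbours on the minus strand, and Myh7b lies at chr2:155611243-155634307 on the plus strand (RefSeq, build GRCm38).

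The KO animals were 2 male AMPKα2-/- C57BL/6 mice of about 8 weeks and the WT animals were 2 male controls, all labelled as adult, with 1 library per mouse. The knockout removed DNA that codes for part of the catalytic domain of AMPKα2, an energy-sensing kinase subunit encoded by Prkaa2, and it was present in all tissues rather than in muscle alone. The labels name the tissue as skeletal muscle, and the methods of the study name the gastrocnemius. WTSS-seq (whole transcriptome start site sequencing) was used, in which RNA depleted of ribosomal RNA is copied with template switching at its 5′ end, so that a read marks the 5′ end of a transcript or of a fragment of one.

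Myosin heavy chains are the motor proteins of the thick filament. Each heavy chain splits ATP with its head and joins the filament with its long tail, and the isoform that a fibre carries largely sets how fast it contracts. Myh4, Myh1 and Myh2 encode the fast IIb, IIx and IIa chains of adult limb muscle, Myh7 encodes the chain of slow fibres and of the ventricle, and Myh6 encodes the main chain of the adult mouse heart. Myh3 and Myh8 encode the embryonic and perinatal chains that precede the adult ones, Myh13 is a chain of eye muscles, and Myh7b is an ancient member with little protein in most limb muscles. The gastrocnemius of the mouse is known as a mostly fast muscle.

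Each library held between 1300069 and 2900279 reads, the KO libraries being the deeper ones. Mitochondrial and 18S ribosomal sites took 36.7% to 41.8% of the reads. The targeted gene Prkaa2 gave 149 and 183 normalized counts in KO and 153 and 186 in WT, a log2 fold change of -0.031 with an SE of 0.50 (DESeq2 adjusted p = 0.994). This sum covers the whole gene. The study gives the deleted part as a range of amino acids, and without exon positions at hand it was not placed among the sites of Prkaa2, so the sum does not check the genotype labels. Among the 19 sites of Prkaa2, 2 had reads in WT alone, summing to 24 and 12 reads in the WT libraries. Another 3 had reads in KO alone, summing to 24 and 22 reads in the KO libraries. The share of all sites with reads in KO alone or in WT alone was not counted, so these sites do not check the labels either. All 5 skeletal muscle markers (Acta1, Ckm, Ttn, Neb and Mb) were present in every library. Of the 6 heart markers, Nppa, Myl7, Tnni3 and Tnnt2 were absent from the table.

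The sequence at the annotated starts is shown for the members of the fast cluster on chromosome 11, because the positions of the reads below are measured from these starts. In RefSeq promoter windows, which run from 250 bases before to 50 bases after each start (build GRCm38), Myh1, Myh2, Myh4 and Myh8 share a run of letters, TTCTAATTATATCC, given in capitals below with 40 bases on either side. It was the longest run that a search of these 4 windows found, and was thus chosen after the letters were seen. The stretches are all on the plus strand, at chr11:67199902-67199995 for Myh1, chr11:67170862-67170955 for Myh2, chr11:67237614-67237707 for Myh4 and chr11:67277030-67277123 for Myh8.
Myh1: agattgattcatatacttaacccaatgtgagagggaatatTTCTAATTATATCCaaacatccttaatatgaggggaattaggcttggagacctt
Myh2: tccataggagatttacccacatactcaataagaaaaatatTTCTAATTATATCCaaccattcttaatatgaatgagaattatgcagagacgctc
Myh4: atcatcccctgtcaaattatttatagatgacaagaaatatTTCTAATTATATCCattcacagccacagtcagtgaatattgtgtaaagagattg
Myh8: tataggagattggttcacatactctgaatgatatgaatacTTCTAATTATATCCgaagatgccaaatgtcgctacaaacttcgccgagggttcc

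Counted from the start as position 0, the run begins at -160 in Myh1, at -125 in Myh2, at -158 in Myh4 and at -54 in Myh8. Of the 32851 promoter windows of the RefSeq table, 4 held this run on either strand, and these were the windows of these members. The letters TATAAA, searched on both strands, were found in 6 of the 10 windows of the members and in 13.6% of all windows. On the sense strand they began at -32 in Myh1, at -213 and -31 in Myh4, at -29 in Myh3, at 10 in Myh2 and at 1 in Myh6. In Myh8 they were found on the antisense strand alone. The stretches around the starts of Myh1 and Myh4 show the match nearest the start in capitals, at chr11:67200058-67200131 and chr11:67237769-67237841, plus strand. A match of letters is a description and was not tied to binding of a factor here.
Myh1 start: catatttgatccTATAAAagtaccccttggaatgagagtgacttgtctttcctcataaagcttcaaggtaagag
Myh4 start: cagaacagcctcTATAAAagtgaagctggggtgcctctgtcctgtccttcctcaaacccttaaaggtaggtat

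Myosin sums were dominated by Myh4, the IIb chain, in every library (values are read counts divided by DESeq2 size factors). Myh4 stood at 15934 and 27034 normalized counts in WT and at 16339 and 24355 in KO. The groups overlapped, and the log2 fold change was -0.078 (SE 0.44, 95% interval -0.93 to 0.78, DESeq2 adjusted p = 0.992). Myh4 alone took 1.39% and 2.38% of the reads outside mitochondrial and 18S sites in WT, and 1.46% and 1.92% in KO.

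Myh1, the IIx chain, stood at 815 and 1661 normalized counts in WT and at 895 and 1308 in KO. Its log2 fold change was -0.17 (SE 0.47, DESeq2 adjusted p = 0.992). Myh2, the IIa chain, stood at 505 and 709 in WT and at 462 and 838 in KO. Its log2 fold change was 0.099 (SE 0.47, DESeq2 adjusted p = 0.992). The KO values lay between the WT values in Myh1 and around them in Myh2, and in both genes the distance between replicates exceeded that between group means.

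Myh7, the slow chain, had 155 and 494 reads in WT and 940 and 922 in KO. After scaling for depth it stood at 217 and 615 normalized counts in WT and at 574 and 806 in KO, so that WT replicate 2 lay between the KO libraries and WT replicate 1 lay below all others. The means were 416 ± 281 (SD, n = 2) in WT and 690 ± 164 (SD, n = 2) in KO, a log2 fold change of 0.73 with an SE of 0.53 (95% interval -0.32 to 1.77, DESeq2 adjusted p = 0.798). Without WT replicate 1 the log2 fold change was 0.17, and without WT replicate 2 it was 1.64 (DESeq2 adjusted p = 0.203). The size of this difference thus rested on single WT libraries. In bulk tissue, the number of slow fibres and the amount of Myh7 RNA per fibre cannot be told apart.

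Myh6 and Myh7b, the other members of the slow or cardiac class, were near the limit of detection. Myh6 had 3 and 15 reads in WT and 20 and 9 in KO, and its normalized counts overlapped. Myh7b had 15 reads in KO replicate 1 at 1 intronic site and 0 in the other libraries, and a count of 0 allows up to 3 reads. The heart markers present, Ryr2 and Actc1, summed to 67.3 and 171 normalized counts in WT and to 75.1 and 35.0 in KO. Actc1 made up most of this, at 65.9 and 161 in WT and at 72.1 and 32.3 in KO. Ryr2 had 8 or fewer reads in each library. The part of heart tissue in the Myh6 reads was not tested.

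Myh8, the perinatal chain, was the second most abundant member by reads although the mice were adult. It stood at 1909 and 2902 normalized counts in WT and at 1721 and 2566 in KO, with a log2 fold change of -0.17 with an SE of 0.43 (95% interval -1.01 to 0.68, DESeq2 adjusted p = 0.991). All of its sites lay far inside the gene, which is described further on. The split of reads between Myh8 and the other members of its cluster is uncertain, as also set out below. Myh3, the embryonic chain, had 0 and 7 reads in WT and 16 and 31 in KO, or 0 and 8.72 against 9.77 and 27.1 normalized counts. It was the only member whose normalized sums did not overlap, against 41.4% of all tested genes without overlap (22% higher in KO), and DESeq2 gave it no adjusted p because of its low mean. The quasi-likelihood test of edgeR gave Myh3 an adjusted p of 0.624. Markers of satellite cells and regenerating fibres had Pax7, Chrng and Chrnd absent, and the 3 present (Myod1, Myog and Ncam1) summed to 15.4 and 28.6 normalized counts in WT and to 36.6 and 21.0 in KO. Their part in the Myh3 and Myh8 reads was not tested.

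Myh13, the extraocular chain, stood at 67.3 and 83.4 normalized counts in WT and at 50.1 and 76.9 in KO, and these overlapped. Its log2 fold change was -0.25 (SE 0.64, DESeq2 adjusted p = 0.990).

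In all, 0 of the 6 members with an adjusted p passed the threshold of 0.1 in the DESeq2 test of gene sums, and 2.67% of the 4688 genes tested did so. No member had an unadjusted p under 0.05 in DESeq2 (0 of 6, against 9.77% of all tested genes), and edgeR called 0 of the 8 members it tested (0.883% of 6115 genes). With 2 libraries per group the intervals above were wide, and these results do not show that the levels were equal.

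**Figure D1:**
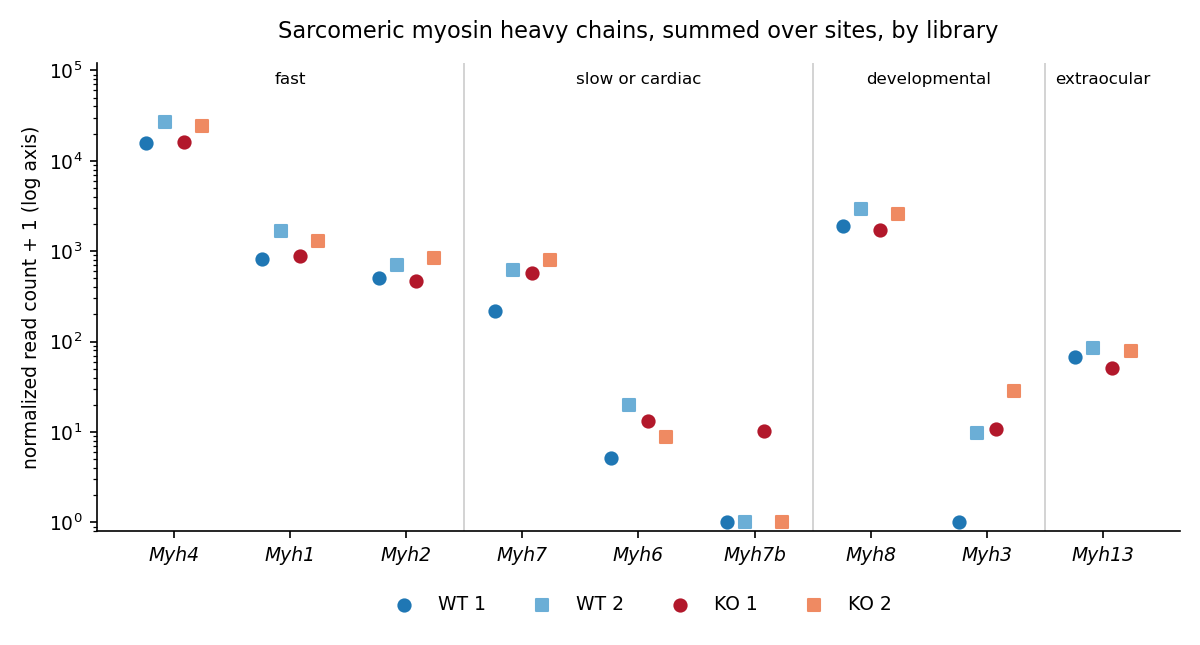
Normalized read count plus 1 (log axis) of the 9 members, summed over sites, with 1 point per library (WT in blue, KO in red). Myh4 lies between 15934 and 27034 in all 4 libraries, and Myh3 is the only gene whose KO points both lie above both WT points.

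Ordered by mean normalized count, the members ran Myh4 (20916), Myh8 (2274), Myh1 (1170), Myh2 (628), Myh7 (553), Myh13 (69.4), Myh3 (11.4), Myh6 (10.7) and Myh7b (2.29). No coding length was at hand, so levels between genes were set per kb of annotated gene span, introns included. On that scale Myh4 had 924 normalized counts per kb, Myh8 had 72.2, Myh1 had 47.8, Myh2 had 23.7 and Myh7 had 23.1, which left the order as it was. Myh2 and Myh7 did not differ beyond their spread, since Myh7 was above Myh2 in KO replicate 1 and below it in the other libraries. Myh3 and Myh6 were likewise not told apart. The genes of the chromosome 11 cluster are close copies of one another in sequence, and how the authors' mapping placed reads that match several of them was not given in the sources used here, so the split of reads between these members is uncertain.

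To compare the isoform classes without scaling between libraries, each class was taken as a share of all sarcomeric myosin reads of its library. The fast class took 88.7% and 89.0% in WT and 88.2% and 88.4% in KO, the KO libraries being the lower ones. The slow or cardiac class took 1.14% (exact 95% binomial interval 0.969 to 1.33) and 1.92% (1.76 to 2.09) in WT, and 2.97% (2.79 to 3.16) and 2.71% (2.54 to 2.89) in KO. Both KO shares lay above both WT shares, and the gap between the WT libraries was larger than that between the KO libraries. Nearly all of this class was Myh7, whose own share was 1.12% and 1.86% in WT and 2.86% and 2.69% in KO.

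The developmental class took 9.81% and 8.81% in WT and 8.62% and 8.65% in KO, both KO shares below both WT shares, and was made up almost wholly of Myh8. Without WT replicate 1 the difference of this class was -0.18 percentage points and without WT replicate 2 it was -1.18, and with all libraries thinned to the smallest total the shares overlapped (9.81% and 8.70% in WT, 8.55% and 8.75% in KO). The extraocular class took 0.346% and 0.253% in WT and 0.250% and 0.256% in KO. KO minus WT was -0.59 percentage points for the fast class, 1.31 for the slow or cardiac class, -0.68 for the developmental class and -0.046 for the extraocular class. The shares of a library add up to the whole, so these differences are not independent of one another. The exact permutation test, two-sided, gave p = 0.33 for the fast, slow or cardiac and developmental classes, the smallest value that 2 libraries against 2 allow. With the site of most reads left out of each member, the fast share was 91.0% and 93.0% in WT and 94.9% and 95.8% in KO, so its direction turned. The slow or cardiac share then was 0.63% and 1.03% in WT and 1.50% and 1.29% in KO, still without overlap.

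**Figure D2:**
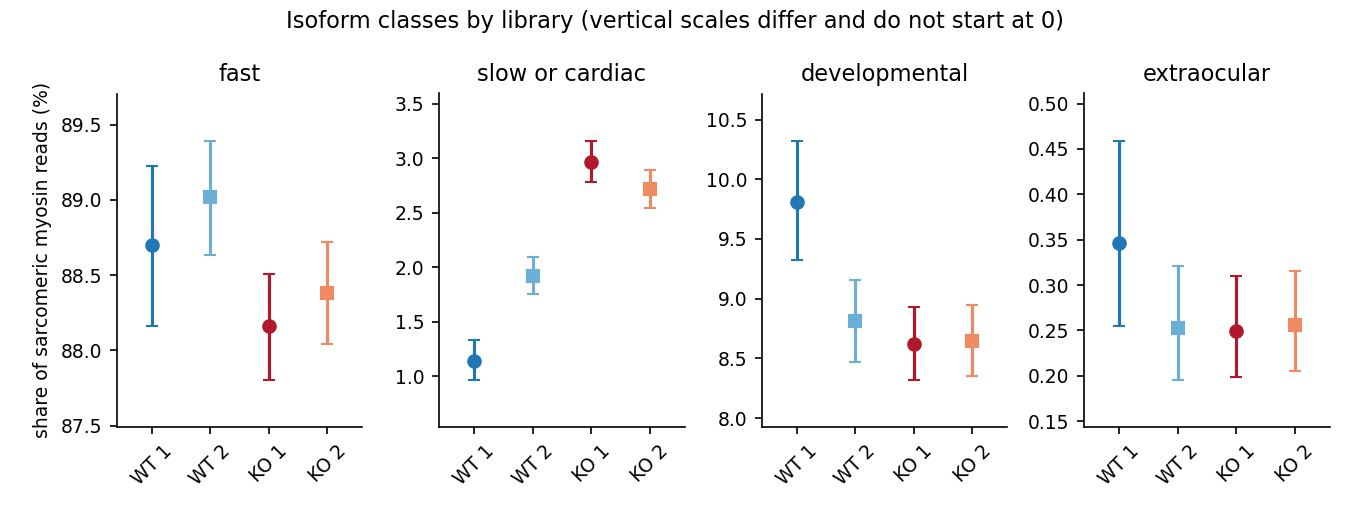
Share of sarcomeric myosin reads (%) taken by each isoform class, 1 point per library with exact 95% binomial intervals, which cover counting error only. The vertical scales differ between panels and do not start at 0. The slow or cardiac share is 1.14% and 1.92% in WT and 2.97% and 2.71% in KO.

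Measured against Myh4 within a library, Myh7 had 13.6 and 22.8 reads per 1000 Myh4 reads in WT and 35.1 and 33.1 in KO. Myh8 had 120 and 107 per 1000 in WT and 105 and 105 in KO. Myh1 had 51.1 and 61.5 in WT and 54.8 and 53.7 in KO, and Myh2 had 31.7 and 26.2 in WT and 28.3 and 34.4 in KO. The ratios of Myh1, Myh2, Myh6, Myh7b and Myh13 to Myh4 overlapped between the groups. Myh7 and Myh3 to Myh4 were higher and Myh8 to Myh4 lower in both KO libraries, and Myh3 had few reads. For Myh8 the KO ratios lay close to the 107 of WT replicate 2, and WT replicate 1 lay further off. Such separation is common with 2 libraries per group, since the sums of 41.4% of all tested genes did not overlap.

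Of the 154 member sites, 74 had an adjusted p in the DESeq2 test of sites, and 1 of them was called, lower in KO (of the 11112 tested sites 3.21% were called, 2.33% higher and 0.882% lower in KO). Among the 74 sites, 5 had an unadjusted p under 0.05, against 9.63% of all tested sites. The libraries of the groups did not overlap at 33 of the 74 sites, 19 higher and 14 lower in KO, against 40.4% of all tested sites (23% higher and 17.4% lower). Median log2 fold changes of the tested sites were -0.054 for the 31 of Myh4, -0.25 for the 14 of Myh1, 0.51 for the 16 of Myh2 and 1.10 for the 8 of Myh7. Over all tested sites the median was 0.097. Of the 8 Myh7 sites, 6 had a log2 fold change above 0 and none passed the test, with a smallest adjusted p of 0.810. The sites of a gene were read in the same libraries and are not independent of its sum.

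The called site lay in Myh8 at chr11:67297149-67297212 on the plus strand, 20050 bases from the annotated start and contained in an annotated transcript. It had 455 and 707 reads in WT and 144 and 155 in KO, which is 617 and 817 normalized counts against 94.5 and 134. Each WT library was thus far above each KO library, even in reads that were not scaled for the greater depth of KO. The means were 717 ± 141 (SD, n = 2) in WT and 114 ± 27.8 (SD, n = 2) in KO, so that WT was 6.28-fold higher, with a log2 fold change of -2.65 with an SE of 0.59 (DESeq2 adjusted p = 0.00110). The quasi-likelihood test of edgeR gave an adjusted p of 0.0964, and called 0.285% of its 11242 sites lower in KO. Without KO replicate 1 the adjusted p of DESeq2 was 0.372, and without KO replicate 2 it was 0.641, while the log2 fold changes were -2.39 and -2.94.

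The largest site of Myh8, at chr11:67297390-67297559, lay 288 bases further along the gene. It had 590 and 1138 reads in WT and 1976 and 2218 in KO, or 801 and 1314 against 1297 and 1914 normalized counts. This neighbour overlapped between the groups and had a log2 fold change of 0.60 (SE 0.58). Of the reads of these 2 sites, the called site took 43.5% (exact 95% binomial interval 40.5 to 46.6) and 38.3% (36.1 to 40.6) in WT, against 6.79% (5.76 to 7.95) and 6.53% (5.57 to 7.60) in KO. These shares describe the site that the test above picked out and were not tested again. Their intervals cover counting error only and leave out the variation between mice. Without the called site, the sum of Myh8 was 1270 and 2021 normalized counts in WT and 1633 and 2430 in KO, and these overlapped.

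None of the other 3 sites of Myh8 was called. A site at chr11:67305810-67305936 near the end of the gene stood at 342 and 477 normalized counts in WT and at 369 and 384 in KO. The site at chr11:67297701-67297754 stood at 80.1 and 77.4 in WT and at 89.3 and 99.2 in KO, and the last, at chr11:67301425-67301448, had 5 or fewer reads in each library.

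**Figure D3:**
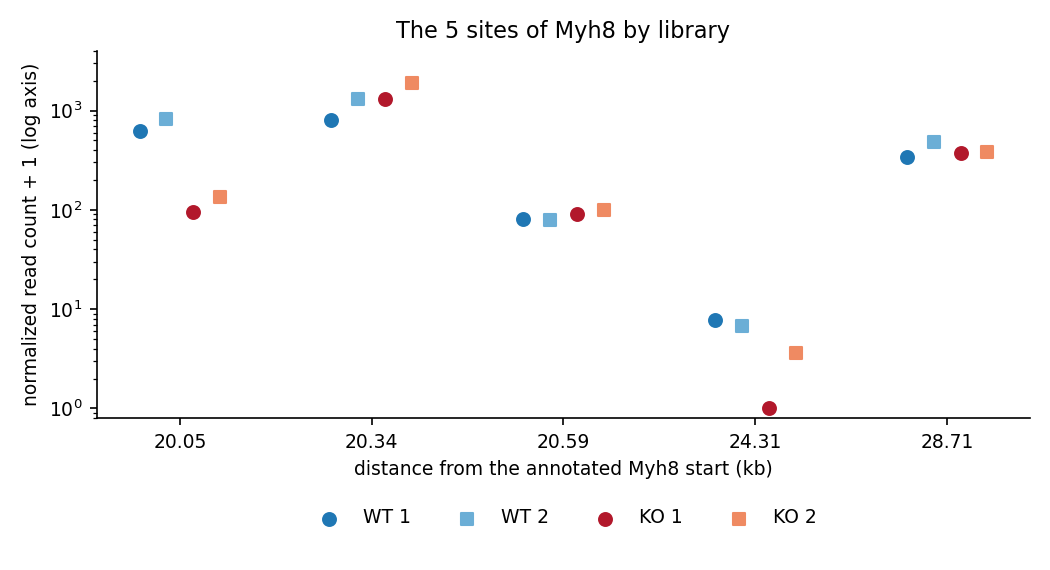
Normalized read count plus 1 (log axis) at the 5 sites of Myh8, placed by distance from the annotated start in kb (spacing not to scale), 1 point per library. At the site nearest the start the WT points are 617 and 817 and the KO points 94.5 and 134, while at the next site the groups overlap.

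The test of site usage (diffSpliceDGE) covered the 5 members that had at least 2 sites after filtering. By the Simes method 0 of the 5 were called, and 1.79% of the 2184 genes tested were. Myh8 had the smallest adjusted p, 0.149, followed by Myh2 with 0.392. Myh2 was called by the gene-level F statistic instead, with an adjusted p of 0.0224 (3.39% of genes were called by that test), and gave Myh8 0.124.

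In Myh2 the sites with the smallest adjusted p, named after their values were seen, were 2 sites of class e, the code for a site that overlaps an exon and an intron. The site at chr11:67188263-67188417 had 84 and 111 reads in WT and 52 and 43 in KO, and its share of the Myh2 reads was 23.3% and 19.5% in WT and 6.87% and 4.48% in KO. The site at chr11:67189278-67189373 had 17 and 36 reads in WT and 6 and 5 in KO. Both were lower in every KO library than in any WT library, and neither passed the test (log2 fold changes -1.77 and -2.97, DESeq2 adjusted p = 0.261 and 0.257). The largest site of Myh2, at chr11:67192649-67192747, held 17.8% of its reads and stood at 73.3 and 98.2 normalized counts in WT and at 110 and 142 in KO.

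The largest site of Myh4, at chr11:67258786-67258957, held 23.0% of the reads of the gene. It stood at 5022 and 5378 normalized counts in WT and at 4115 and 4801 in KO, with a log2 fold change of -0.22 (SE 0.53). The next, at chr11:67251627-67251947, stood at 1012 in WT replicate 1 but at 5175 in WT replicate 2, against 3926 and 5102 in KO. WT replicate 1 stood apart from the other 3 libraries there, and the site was called higher in KO only when WT replicate 2 was left out (log2 fold change 2.11, DESeq2 adjusted p = 0.0801).

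The largest site of Myh1, at chr11:67222133-67222191, stood at 109 and 232 normalized counts in WT and at 257 and 204 in KO. The largest site of Myh7, at chr14:54983582-54983812 on the minus strand, held 62.8% of its reads. It had 97 and 287 reads in WT and 598 and 595 in KO, or 132 and 332 against 392 and 513 normalized counts, which did not overlap (log2 fold change 0.97, SE 0.65, DESeq2 adjusted p = 0.814). The largest sites of Myh13 (chr11:67367560-67367691, 90.9% of its reads), Myh3 (chr11:67092492-67092519, 77.8%) and Myh6 (chr14:54944538-54944603, 78.7%) made up most of the reads of these genes, and the 1 site of Myh7b was at chr2:155631999-155632000.

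The positions of the sites were compared with the annotated starts, since the assay was meant to mark them. No member had a site of its own within 100 bases of an annotated start (0 of 9), against 12.7% of the 6824 genes with a RefSeq start and 20.04% of the 898 genes with at least 500 reads. The nearest sites lay 711 bases from the start in Myh1, 981 in Myh2, 1703 in Myh4 and 1765 in Myh7. These nearest sites were small, with 18 reads over the 4 libraries in Myh1, 24 in Myh2, 13 in Myh4 and 19 in Myh7, and none had an adjusted p. In Myh13, Myh3, Myh8, Myh6 and Myh7b the nearest site was 14087, 14126, 20050, 20127 and 20757 bases from the start.

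Most reads lay beyond the midpoint of the annotated gene. Their share was 97.0% in Myh4, 85.3% in Myh1, 86.0% in Myh2, 94.7% in Myh13 and 100% in Myh8. Myh7 differed, with 30.3% beyond the midpoint, since its largest site lay 10846 bases from the start of a gene of 23943 bases. Reads this far inside a gene mark 5′ ends of RNA pieces or of shorter transcripts, which the counts do not tell apart.

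Sites of class e held 93.5% of the member reads, against 4.57% of the reads of all sites with a gene. The latter reads include those of the members, and 37.1% of them lay at 5 sites of class =, which no member had. By number, 58 of the 154 member sites were of class e (37.7%, against 3.20% of all sites with a gene), 55 were contained in a transcript (35.7% against 38.6%) and 29 were intronic (18.8% against 52.0%). Member sites of class e had a median width of 97.5 bases, against 66 bases for that class over all genes. Class e held 97.4% of the reads in Myh4, 80.4% in Myh8, 79.5% in Myh7, 78.7% in Myh6, 77.7% in Myh1 and 67.8% in Myh2. In Myh3, Myh13 and Myh7b, which had 1 to 3 sites each, it held 0%.

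**Figure D4:**
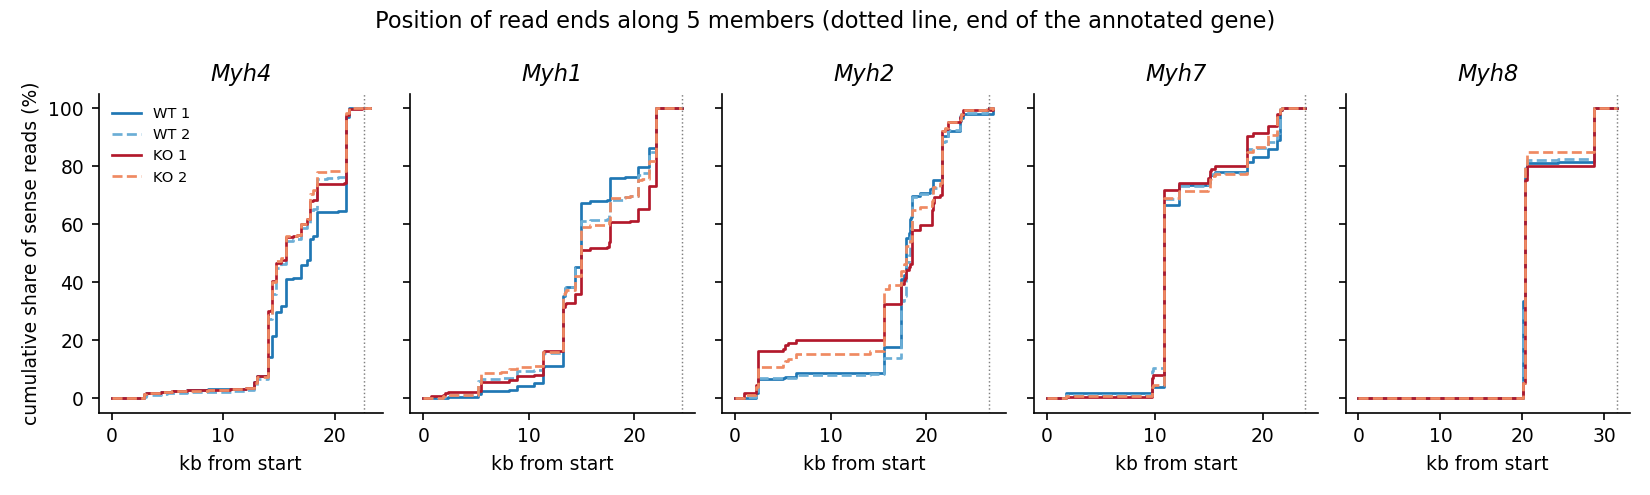
Cumulative share of sense reads (%) against distance from the annotated start (kb) in 5 members, 1 line per library (WT in blue, KO in red, replicate 2 dashed), with the end of the gene dotted. In Myh4, Myh1 and Myh2 most reads lie beyond the midpoint, in Myh7 the largest step is at 10846 bases, and in Myh8 the site nearest the start is at 20050 bases.

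Antisense sites of the members, 4 in number, had reads in KO and 0 in both WT libraries. In Myh1 the antisense site at chr11:67215057-67215079 had 8 and 200 reads in KO. In Myh2 the site at chr11:67189459-67189471 had 0 and 37, and in Myh4 the 2 sites had 2 and 37 (chr11:67253291-67253307) and 11 and 0 (chr11:67248566-67248570). KO replicate 2 thus held 274 of these reads and KO replicate 1 held 21. No antisense site was called with all libraries. Sites were listed only with at least 10 reads in all, and the KO libraries were the deeper ones. How many antisense sites of all genes had reads in KO alone was not counted, so these 4 sites are a description only. Antisense sites took 2.08% and 2.42% of the reads outside mitochondrial and 18S sites in KO and 2.42% and 2.30% in WT, so their share over all genes overlapped. Without antisense sites the log2 fold change of Myh1 was -0.29 and that of Myh2 was 0.069.

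Introns of Myh6, Myh7 and Myh7b host microRNAs, small RNAs that pair with messenger RNAs through bases 2 to 8, the seed. They are shown because they link the slow and cardiac members by sequence. The mature sequences (RefSeq, build GRCm38) are given with the seed in capitals, and miR-208a-3p (chr14:54949072-54949093, minus strand, in Myh6) and miR-208b-3p (chr14:54975710-54975731, minus strand, in Myh7) share theirs. That of miR-499-5p (chr2:155622893-155622913, plus strand, in Myh7b) differs from it.
miR-208a-3p: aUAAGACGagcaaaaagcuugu
miR-208b-3p: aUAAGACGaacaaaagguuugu
miR-499-5p: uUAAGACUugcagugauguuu

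Within 100 bases of these microRNAs there were 0 sites. Mir208a, Mir208b and Mir499 were also absent as symbols, and libraries of this kind were not designed for mature microRNAs.

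To place the members among their partners, gene lists for the sarcomere and for fibre types were described by counts. Of the 10 slow fibre genes, Myl2 was absent, 7 had an adjusted p, 0 were called, and 6 of the 7 had a log2 fold change above 0, with a median of 0.51. Over all 4688 tested genes 2368 were above 0 and the median was 0.010. Tnnt1, slow troponin T, stood at 7.01 and 46.1 normalized counts in WT and at 65.4 and 94.4 in KO (log2 fold change 1.58, SE 0.85, DESeq2 adjusted p = 0.557). Tnnc1, slow and cardiac troponin C, stood at 7.01 and 12.5 in WT and at 20.2 and 32.3 in KO (log2 fold change 1.42, SE 1.08, DESeq2 adjusted p = 0.825). The other tested genes changed less, with log2 fold changes of -0.094 in Myl3, 0.054 in Casq2, 0.17 in Myoz2, 0.51 in Tpm3 and 0.55 in Atp2a2. The summed level of the slow list was 362 and 737 normalized counts in WT and 658 and 915 in KO, which overlapped. WT replicate 1 was the lowest library for Myh7 and for each of the 7 slow fibre genes with an adjusted p. These genes thus share the low values of 1 WT library. The groups overlapped in Myl3, Tpm3, Casq2 and Myoz2.

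Of the 10 fast fibre genes, all had an adjusted p, 0 were called and 1 was above 0, with a median log2 fold change of -0.075. Their summed level was 17273 and 27252 normalized counts in WT and 19063 and 21967 in KO, overlapping as Myh4 did. The lowest log2 fold change was that of Tnni2, fast troponin I, at -0.68 (SE 0.55, DESeq2 adjusted p = 0.866).

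**Figure D5:**
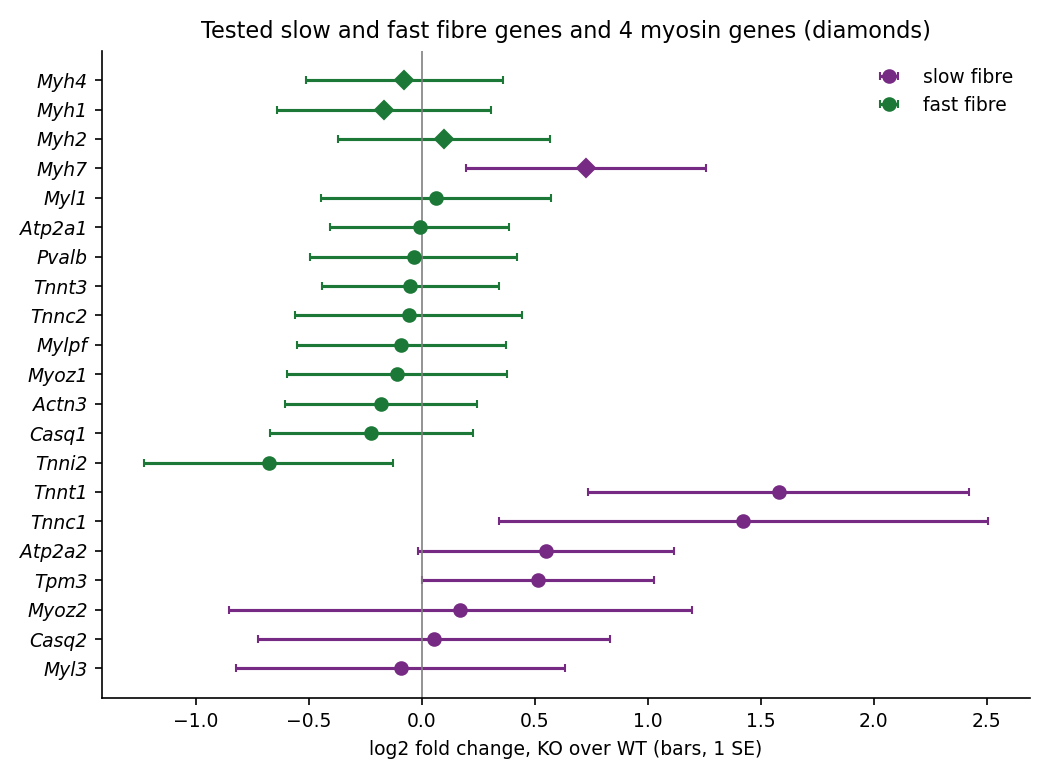
Log2 fold change of KO over WT with 1 SE (DESeq2, gene sums) for the slow and fast fibre genes with an adjusted p (circles) and for Myh7, Myh2, Myh1 and Myh4 (diamonds). Of the slow fibre genes 6 of 7 lie above 0 and of the fast fibre genes 1 of 10 does, and 0 in either list were called.

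Of the 14 thick filament partners, Myl2 and Myl6b were absent, 9 had an adjusted p and 0 were called, with a median log2 fold change of 0.064. Of the 8 genes of myosin assembly and phosphorylation, 1 was called by DESeq2 (2.67% of all tested genes) and 0 by edgeR (0.883%). This was Trim63, a ubiquitin ligase of muscle that acts on myosin heavy chain, which stood at 101 and 169 normalized counts in WT and at 29.3 and 38.4 in KO and fell by 2.00 on the log2 scale (SE 0.62, DESeq2 adjusted p = 0.0620, edgeR adjusted p = 0.166). Mylk4, a myosin light chain kinase family member, had 18323 normalized counts in KO replicate 2 against 1730 to 2232 in the other libraries (log2 fold change 2.55, SE 1.26, DESeq2 adjusted p = 0.493).

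Of the 17 regulators of myosin isoforms, 4 were absent (Prox1 and the 3 microRNAs), 11 had an adjusted p and 0 were called. Among them Sox6, a repressor of slow fibre genes, stood at 759 and 852 normalized counts in WT and at 705 and 972 in KO. 2310065F04Rik, a non-coding RNA gene inside the myosin cluster of chromosome 11, stood at 33.7 and 52.3 in WT and at 25.0 and 35.0 in KO. Of the 4 non-sarcomeric myosin heavy chain genes, Myh9, Myh10 and Myh11 had an adjusted p and 0 were called. The most abundant of them, Myh9, had 270 and 275 reads in KO, well under the 940 and 922 of Myh7. In WT it had 164 and 277 reads against 155 and 494 of Myh7, so it was not lower in WT replicate 1.

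In the cluster on chromosome 11, 293315 bases from the start of Myh3 to the end of Myh13, Myh4 held 83.2% of the reads. In order along the chromosome the cluster runs Myh3, Myh2, Myh1, Myh4, Myh8 and Myh13, so the most abundant member sat between Myh1 and Myh8. Reads of sites with other symbols or none in this stretch were few, and the largest of these genes, Gm12300, had 34 and 82 reads in WT and 14 and 22 in KO.

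As the measure of likeness served the root mean square difference of centred log2 normalized counts over the 4 libraries, for which the members with a mean of at least 100 normalized counts were set against 1397 genes. Closest to Myh4 were Zfp462 (0.0450), Slc16a10 (0.0474) and Myh8 (0.0771). Closest to Myh8 were Ehbp1l1 (0.0289), Casq1 (0.0365) and Gm6627 (0.0595). Closest to Myh1 were Dlat (0.0654), Ptpn4 (0.0814) and Zfp462 (0.0870), and closest to Myh2 were Clcn1 (0.0634), Rab18 (0.0912) and COX1 (0.0920). Closest to Myh7 were Tcap (0.128), Lmod2 (0.157) and Elk4 (0.190). With 4 libraries these are descriptions of shared ups and downs between libraries, WT replicate 1 and KO replicate 1 being low for Myh4, Myh8 and Myh1 alike.

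Sums of markers of other cell types were set beside these values. The 4 fibroblast markers summed to 3078 and 3029 normalized counts in WT and to 2554 and 2074 in KO, and the 3 endothelial markers to 37.9 and 51.1 in WT and to 31.8 and 15.7 in KO, both lower in KO without overlap. Among single markers Col3a1, Dcn and Pecam1 did not overlap, whereas Col1a1, Col1a2, Cdh5 and Kdr did. The endothelial sums rested on 18 to 52 reads a library. Of all tested genes 41.4% did not overlap (19.4% lower in KO). Sums of adipocyte, smooth muscle, blood and Schwann cell markers overlapped. The part of these cells in the myosin values was not tested.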

How the data were processed

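The authors deposited 1 table of raw read counts for 42207 sites in 4 WTSS-seq libraries (2 KO, 2 WT). Per the methods, 3′-end sister libraries were mapped with TMAP, read ends were clustered into sites, and Cuffcompare class codes were assigned, and whether each setting held for the 5′ ends was not stated. The build was GRCm38 per the labels. Each site had at least 10 reads in all. All sites, and all gene sums, were fitted in DESeq2 (1.42.0 under R 4.3.3, Wald test; adjusted p under 0.1 over all features tested, as in the methods), edgeR (4.0.16, quasi-likelihood) ran beside it, and diffSpliceDGE tested usage. The scripts were tested on simulated data.

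Groups and replicate numbers came from the labels. Deviations of equal numbers correlated at 0.0703 over 10728 sites, so numbers were not taken as pairs. No molecular identifiers were described, so intervals and the floor of 3 reads cover counting error only. Members, lists and tests were chosen with earlier results of these data known. Named items were the 9 members, the largest, nearest and called sites of each, the 3 most alike genes, and the called companion genes with the 3 of smallest p. 1 companion gene that this rule names is not reported here. Gene positions came from RefSeq, in which 9262 of 9838 symbols and all 9 members were found. Alternatives covered the test, scaling, filters, threshold, block, sites summed and each library left out.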

Additional observations from a re-analysis of the deposited data

How the results depend on the processing

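No gene sum of a member was called in either direction under any of the 13 alternatives. The number of member sites called lower in KO was 1 with all libraries, 0 to 1 when single libraries were left out, and 0 in edgeR with the replicate number as a block (adjusted p 0.153 for the Myh8 site). The number called higher was 0, and 0 to 1 when single libraries were left out, namely the antisense Myh1 site without KO replicate 1 and a Myh4 site without WT replicate 2. Changed usage was called for 0 members, and for 1 by the gene-level F test (Myh2), 1 with a minimum of 20 reads (Myh1) and 0 to 1 when single libraries were left out. The replicate block changed no other call among the members.

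With the largest site of each member left out, KO minus WT became 3.34 percentage points for the fast share, 0.56 for the slow or cardiac share and -3.88 for the developmental share. When single libraries were left out, the gene-level log2 fold change ran from -0.59 to 0.40 in Myh1, from -0.38 to 0.47 in Myh2, from -0.41 to 0.32 in Myh4, from -0.47 to 0.14 in Myh8, from -0.58 to 0.037 in Myh13 and from -0.89 to 1.23 in Myh6, so its sign turned in each. With only sense sites that overlap an exon summed, class e included, it turned to 0.18 in Myh4, 0.082 in Myh8 and 0.17 in Myh6. With the replicate block Myh6 turned to 0.097 in DESeq2 and 0.0040 in edgeR. None of these was called, and the cause was not tested. Shares per kb of coding length were not run for want of coding lengths. Shares per kb of gene span, and gene sums without antisense sites, were chosen after seeing the data and changed no call.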
